A study of Bos taurus with 38 samples.

Results

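ETS2, ETV1 and ETV4 are transcription factors of the ETS family, and their transcripts were followed in single cattle oocytes and in the cumulus cells that surrounded each oocyte. The 3 genes (ENSBTAG00000009214, ENSBTAG00000015981 and ENSBTAG00000008333) were picked by name from the 27607 Ensembl identifiers in the count tables. ETS2 and ETV1 were picked because of a difference between the classes of cumulus cells, and ETV4 because of its co-expression, as an oocyte gene, with cumulus genes in 1 class of complexes. Those values are therefore described below without a test. Cumulus-oocyte complexes had been aspirated from antral follicles of abattoir ovaries of Bos taurus, stained with brilliant cresyl blue (BCB) and classed as BCB positive (blue kept) or BCB negative (blue lost). BCB is a dye that glucose-6-phosphate dehydrogenase, active in growing oocytes, reduces to a colorless form, so that an oocyte that has finished growing tends to stay blue. Each of 9 BCB positive and 10 BCB negative complexes gave 1 oocyte library and 1 cumulus library, which makes 38 libraries, and every complex of both classes had been exposed to the dye. The complex number, which an oocyte shares with its own cumulus cells, falls into 3 runs. Numbers 6 to 24 cover 3 positive and 1 negative complex, numbers 65 to 74 cover 6 positive and 3 negative ones, and numbers 86 to 91 cover 6 negative ones alone, so that there the run and the class cannot be told apart. No label ties a complex to an animal, and the labels do not say what a run of numbers stands for.

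ETS factors bind DNA at sites with a GGAA core, and many of them are switched on by the mitogen-activated kinase ERK. ETS2 is a direct target of ERK phosphorylation and is known in cattle as an activator of interferon tau in the trophoblast. ETV1 and ETV4 belong, with ETV5, to the PEA3 subfamily, whose transcripts are induced by fibroblast growth factor (FGF) signals, repressed by CIC and whose proteins are marked for degradation by COP1. In the follicle, FGFs and EGF-like ligands reach ERK in cumulus and granulosa cells.

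The libraries held 8886070 to 29810354 counts on genes in oocytes and 1103200 to 10430148 in cumulus cells, so that the cumulus values of these low genes rest on few counts. The zona pellucida genes ZP2 and ZP3, which mark the oocyte, summed to 2713 to 5051 CPM (counts scaled to a common library total) in oocyte libraries and to 0 to 65.3 CPM in cumulus libraries, while 8 cumulus and granulosa genes (FSHR, CYP19A1, AMHR2, INHA, INHBA, FOXL2, HSD17B1 and NR5A2) summed to 977 to 21024 CPM in cumulus libraries and to 7.99 to 1910 CPM in oocyte libraries. The labelled compartments carried their markers, but the sums of the cumulus markers overlapped, since the oocyte library of complex 72 was at 1910 CPM, above the 977 CPM of the cumulus library of complex 6. The oocyte libraries of complexes 74 and 88 were at 363.8 and 368 CPM. Of 14 comparisons of library measures between the classes, 4 passed an adjusted p of 0.05 and all 4 were in cumulus cells. BCB negative cumulus libraries had lower totals (adjusted p = 0.0144, exact permutation test), a larger share of mitochondrially encoded transcripts (adjusted p = 0.00659, exact permutation test) and a lower sum of cumulus markers (adjusted p = 0.00659, exact permutation test). That sum is scaled to library totals alone. On TMM-normalized counts 0 of the 8 cumulus markers were called between the classes. Their median log2 fold change of BCB positive over BCB negative was 0.45, beside -0.01 for all genes, and 0.02 within complexes 65 to 74. The sum of STAR and HSD3B1, taken as theca markers, was also lower (adjusted p = 0.0144, exact permutation test), but the genes went opposite ways. HSD3B1 was at 64.1 ± 28.6 CPM (SD, n = 10) in BCB negative and 126.0 ± 40.9 CPM (SD, n = 9) in BCB positive cumulus cells, and STAR at 7.61 ± 8.63 and 3.32 ± 1.17 CPM. STAR was at 404.1 CPM or more in every oocyte library and thus not particular to theca here. The epithelial keratins KRT8 and KRT18 summed to 9.2 to 61.8 CPM in BCB positive and 26.2 to 451 CPM in BCB negative cumulus libraries (adjusted p = 0.056, exact permutation test). Markers of leukocytes and fibroblasts had no identifier with a symbol and were not analysed here.

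ETS2 was a low transcript in both compartments, with its highest values in some BCB negative cumulus libraries. In BCB positive cumulus cells it ranged from 0.529 to 2.97 CPM with a median of 1.51 (2 to 31 counts), and in BCB negative cumulus cells from 0 to 18.4 CPM with a median of 2.97 (0 to 54 counts). The means were 1.49 ± 0.75 (SD, n = 9) and 4.73 ± 5.39 CPM (SD, n = 10). The classes overlapped, since 5 of the 10 BCB negative libraries lay inside the BCB positive range or below it, and the spread of the BCB negative class came from few libraries, with 18.4 CPM in complex 86, 7.9 in complex 6 and 6.74 in complex 89. The fitted log2 fold change of BCB positive over BCB negative, which is on the scale of TMM-normalized counts and belongs to the contrast that chose the gene, was -2.13 (SE 0.52), and without complex 86 it was -1.54. In oocytes ETS2 ranged from 0 to 2.19 CPM (mean 0.863 ± 0.678, SD, n = 9) in BCB positive and from 0.202 to 1.35 CPM (mean 0.748 ± 0.392, SD, n = 10) in BCB negative complexes, and the ranges overlapped. Only 1 of the 19 oocyte libraries exceeded 2 CPM, so that ETS2 did not enter the oocyte test, which asked for more than 2 CPM in at least 9 libraries. A fit without this filter gave a log2 fold change of 0.20 (SE 0.48) between the oocyte classes (edgeR adjusted p = 0.95).

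**Figure D1:**
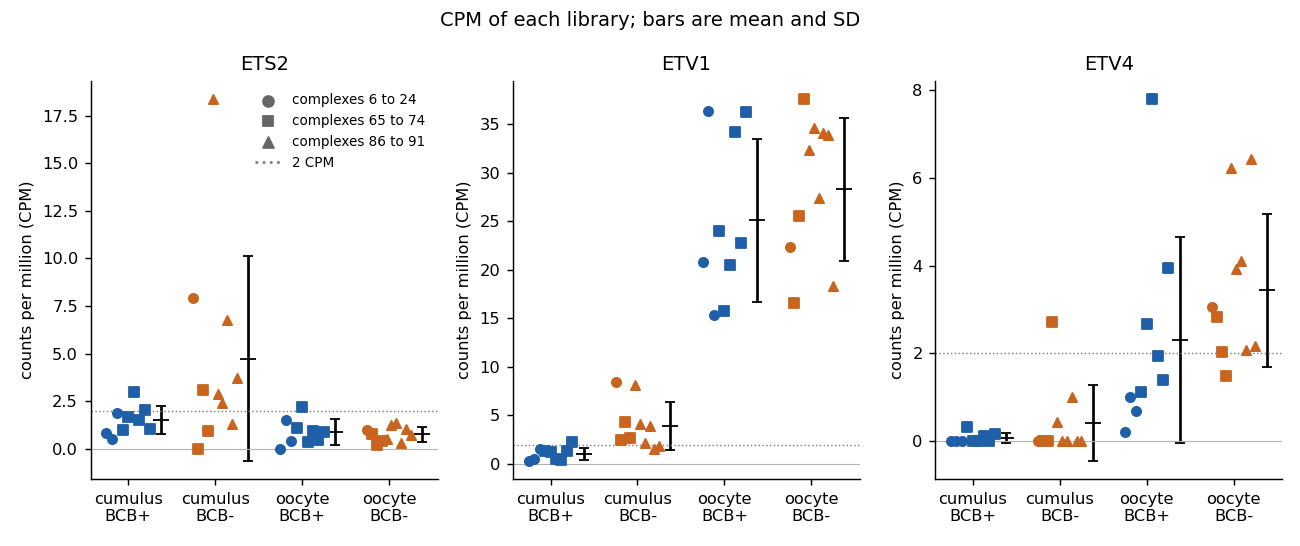
CPM of ETS2, ETV1 and ETV4 (y axes, linear, each with its own scale) in each library of 4 groups (x axis). Points are libraries with the run of complex numbers as the symbol, bars give the mean and SD, and the dotted line marks 2 CPM. ETV1 lies at 15.4 to 37.6 CPM in oocytes and at most 8.46 CPM in cumulus cells, and the ETS2 value of 18.4 CPM stands alone among BCB negative cumulus libraries.

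Within the run from 65 to 74, where both classes are present, the ETS2 means in cumulus cells were close. They were 1.70 ± 0.739 CPM (SD, n = 6) in BCB positive and 1.33 ± 1.58 CPM (SD, n = 3) in BCB negative complexes. The BCB negative libraries of this run held 0, 5 and 1 counts, and 2 of them, at 0.906 and 3.08 CPM, enclosed the BCB positive range of 0.999 to 2.97 CPM. The fitted log2 fold change within the run was -0.38 (SE 0.81), against 0.32 with library totals alone and 1.2 without complex 66, so that its sign was not settled. In the run from 86 to 91 ETS2 ranged from 1.29 to 18.4 CPM (median 3.27, n = 6).

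The 3 cumulus libraries with the highest ETS2 were also the 3 with the highest keratin sums, at 274 CPM in complex 86, 236 in complex 6 and 451 in complex 89. Without these libraries, a choice made after the values were seen, ETS2 in BCB negative cumulus cells ranged from 0 to 3.7 CPM with a mean of 2.04 ± 1.33 (SD, n = 7), and the fitted log2 fold change between the classes was -0.94. Complex 6 also had the lowest sum of cumulus markers, 977 CPM. The part of the keratin-bearing RNA in the ETS2 values was not tested. In libraries made from many cells, fewer cells of a type and less RNA per cell cannot be told apart.

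ETV1 was mainly an oocyte transcript and, in cumulus cells, was lower in BCB positive complexes. In oocytes it ranged from 15.4 to 36.4 CPM with a median of 22.7 in BCB positive and from 16.6 to 37.6 CPM with a median of 29.9 in BCB negative complexes (201 to 1017 counts). The 2 ranges nearly coincided, and the means of 25.1 ± 8.4 (SD, n = 9) and 28.3 ± 7.35 CPM (SD, n = 10) differed by less than the spread between oocytes. The test in oocytes, which the choice of the gene did not use, gave a log2 fold change of BCB positive over BCB negative of -0.17 (SE 0.19, 95% interval -0.57 to 0.23, edgeR quasi-likelihood adjusted p = 0.941). Among complexes 65 to 74 alone the value was -0.10 (SE 0.30, edgeR adjusted p = 0.878).

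In cumulus cells ETV1 ranged from 0.279 to 2.22 CPM with a median of 1.2 (1 to 13 counts) in BCB positive and from 1.51 to 8.46 CPM with a median of 3.29 (3 to 31 counts) in BCB negative complexes. The classes overlapped only between 1.51 and 2.22 CPM, where 1 BCB positive and 3 BCB negative libraries lay. The means were 1.04 ± 0.648 (SD, n = 9) and 3.96 ± 2.48 CPM (SD, n = 10), and summed over libraries 62 counts in BCB positive against 116 in BCB negative cumulus cells gave 1.02 CPM (95% Poisson interval 0.782 to 1.31) and 3.66 CPM (3.02 to 4.39). These intervals cover counting error only. As for ETS2, the fitted log2 fold change of -2.40 (SE 0.43) is a description. Within the run from 65 to 74 it was -2.24 (SE 0.64), but -1.47 with library totals alone, and there r of cumulus ETV1 with the log10 library total was -0.96. In that run the 3 BCB negative libraries (2.42, 4.31 and 2.72 CPM) all lay above the 6 BCB positive ones (0.431 to 2.22 CPM). Those 3 libraries held 4, 7 and 3 counts, and they were also the 3 cumulus libraries with the most ZP2 and ZP3 (7.87, 65.3 and 48.0 CPM in sum, against at most 1.37 CPM in the 6 BCB positive ones). The part of oocyte RNA in the difference within the run was not tested, since no BCB negative library would remain without them. Without the 3 libraries rich in keratins the log2 fold change over all complexes was -1.87, without the 5 cumulus libraries at 5 or more CPM of ZP2 and ZP3 it was -2.22, with library totals alone it was -1.88 and with the log10 library total as a covariate -1.81. The part of the smaller totals and the larger mitochondrial share of the BCB negative cumulus libraries in these values was not tested otherwise. Of the 12313 genes tested in cumulus cells 69, or 0.56%, passed an FDR of 0.01, and 64, or 0.52%, were lower in BCB positive complexes. From this background nothing is read for ETS2 or ETV1. The split of 5 higher and 64 lower depended on the scaling, since library totals alone, which raised the median log2 fold change of all genes from -0.01 to 0.46, gave 1629 higher and 103 lower. Both genes passed the filter in exactly 9 cumulus libraries, of which 2 were BCB positive for ETS2 and 1 for ETV1, so that they passed mainly through the class where they were higher.

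**Figure D2:**
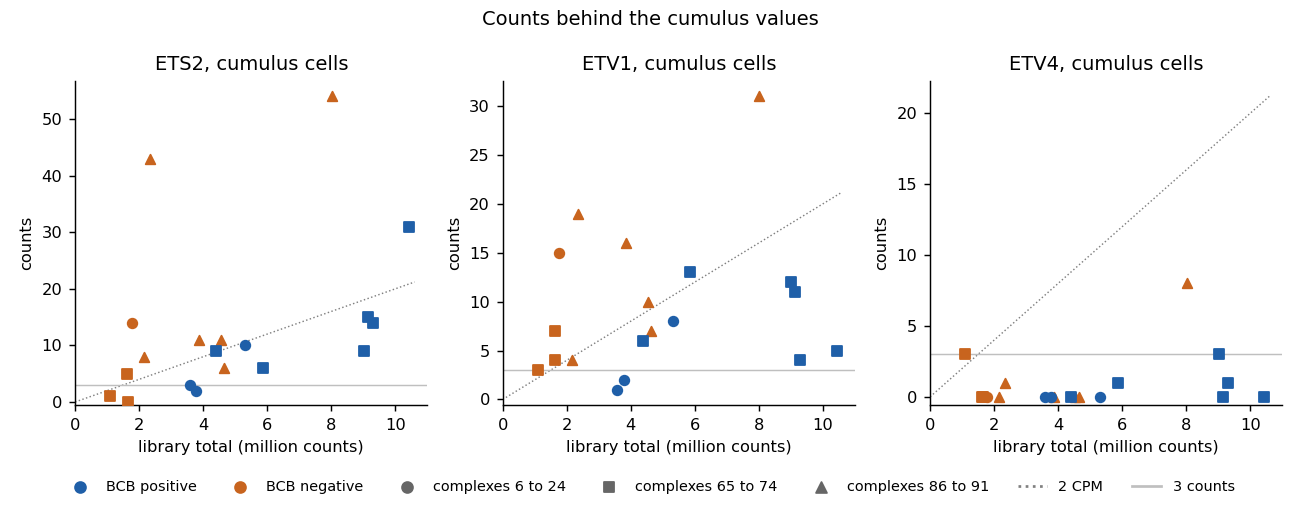
Counts of ETS2, ETV1 and ETV4 (y axes) against the library total (x axes) in the 19 cumulus libraries. Color is the BCB class, the symbol is the run, the dotted line is 2 CPM and the gray line 3 counts. ETV1 is at 1 to 31 counts, and BCB negative libraries, most with smaller totals, lie mainly above the dotted line for ETS2 and ETV1.

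Since some cumulus libraries held zona pellucida transcripts, the cumulus level of ETV1 was set against that of ZP2 and ZP3. The mean cumulus CPM of ETV1 was 4.14% of its mean oocyte CPM in BCB positive and 14.0% in BCB negative complexes. The same percentages were 0.00968% and 0.298% for ZP2 and 0.00987% and 0.511% for ZP3. The highest cumulus values of ETV1, in complexes 6 and 86, came with marker sums of 2.26 and 5.13 CPM, while the largest sums, 65.3 and 48.0 CPM, came with 4.31 and 2.72 CPM of ETV1 in complexes 66 and 68. The part of oocyte RNA in the cumulus values of ETV1 was not tested.

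ETV4 was counted in every oocyte and in few cumulus libraries. In oocytes it ranged from 0.205 to 7.79 CPM with a median of 1.39 in BCB positive and from 1.49 to 6.44 CPM with a median of 2.94 in BCB negative complexes (3 to 148 counts). The classes overlapped over most of their range, with means of 2.31 ± 2.34 (SD, n = 9) and 3.44 ± 1.74 CPM (SD, n = 10). The log2 fold change of BCB positive over BCB negative oocytes was -0.58 (SE 0.44, 95% interval -1.51 to 0.36, edgeR adjusted p = 0.91), and without complex 71, the highest BCB positive oocyte, it was -1.09. Within the run from 65 to 74 the sign was the other way, 0.50 (SE 0.59, edgeR adjusted p = 0.657), though -0.013 without complex 71, and the lowest values of all were those of the 3 BCB positive oocytes of the run from 6 to 24, at 0.205, 1.02 and 0.688 CPM. In cumulus cells 13 of 19 libraries held no count of ETV4, which allows up to 0.288 to 1.85 CPM in a library depending on its total, taking 3 counts as the limit, and the other 6 held 1 to 8 counts. The 5 counts over the 9 BCB positive libraries gave 0.0823 CPM (95% Poisson interval 0.0267 to 0.192) and the 12 counts over the 10 BCB negative libraries 0.379 CPM (0.196 to 0.661), of which 8 counts came from complex 89. ETV4 did not pass the cumulus filter. The fit without the filter gave a log2 fold change of -2.26 (SE 1.01, edgeR adjusted p = 0.154), which did not pass the threshold, with an unadjusted p of 0.0328 from edgeR.

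In oocytes neither of the 2 members tested was called between BCB classes at an FDR of 0.01 by edgeR, and the background was 0 of 12753 genes, or 0%. At an unadjusted p under 0.05 there were 711 genes, and DESeq2 called 1 gene. Among complexes 65 to 74 edgeR also called 0%, but 2656 genes had an unadjusted p under 0.05 and DESeq2 called 479. The difference of the BCB effect between compartments, tested over all 38 libraries, was 1.77 on the log2 scale for ETV4 (SE 1.12, edgeR adjusted p = 0.445), where 1.73% of 14898 genes (258) passed. With the replicate block by complex it was 1.64 (edgeR adjusted p = 0.594), and 2 genes passed. For ETS2 and ETV1 the same difference contains the contrast that chose them, and its values of 2.33 (SE 0.73) and 2.18 (SE 0.44) are given as a description.

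Oocytes and cumulus cells differed in all 3 members, in 2 directions. Averaged over the classes, ETV1 was 9.93-fold higher in oocytes (log2 fold change 3.31, SE 0.22, edgeR adjusted p = 3.06e-17), and it was higher in the oocyte than in its own cumulus cells in 19 of 19 complexes. The lowest oocyte value, 15.4 CPM, lay above the highest cumulus value, 8.46 CPM. ETV4 was 12.3-fold higher in oocytes (log2 3.62, SE 0.52, edgeR adjusted p = 3.21e-08) and higher in 18 of 19 complexes. The exception was complex 68, with 2.72 CPM from 3 counts in cumulus cells and 1.49 CPM in the oocyte. ETV4 exceeded 2 CPM in 12 oocyte libraries and 1 cumulus library. It thus passed the filter mainly through the compartment where it was higher, and its fold rests on few cumulus counts. A fit without the filter gave a log2 fold change of 3.74 (SE 0.51). ETS2 went the other way and was higher in cumulus cells in 15 of 19 complexes. Its log2 fold change of oocyte over cumulus, given as a description, was -2.13 (SE 0.37). This value is not independent of the choice of the gene, since 9 of the 10 libraries above 2 CPM that let ETS2 into the fit were cumulus libraries and 7 of those were BCB negative. By class ETS2 was higher in cumulus cells in 9 of 10 BCB negative but in 6 of 9 BCB positive complexes. Without the 3 complexes rich in cumulus keratins its log2 difference was -1.46. The calls of ETV1 and ETV4 are to be read against a background in which 88.4% of the 14898 genes tested were called. Of the genes tested 46.2% were called higher in oocytes and 42.2% lower, so that a call does not set the members apart. Ranges that did not overlap between compartments, as for ETV1, were found in 32.9% of genes with the oocyte higher, a higher oocyte value in all 19 complexes in 40.1%, and in at least 18 of 19 in 45.3%. The median log2 fold change of all genes in this fit was 0.14, and 0.55 with library totals alone. The 3 directions were kept under that scaling, DESeq2's size factors, no filter and a replicate block by complex.

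**Figure D3:**
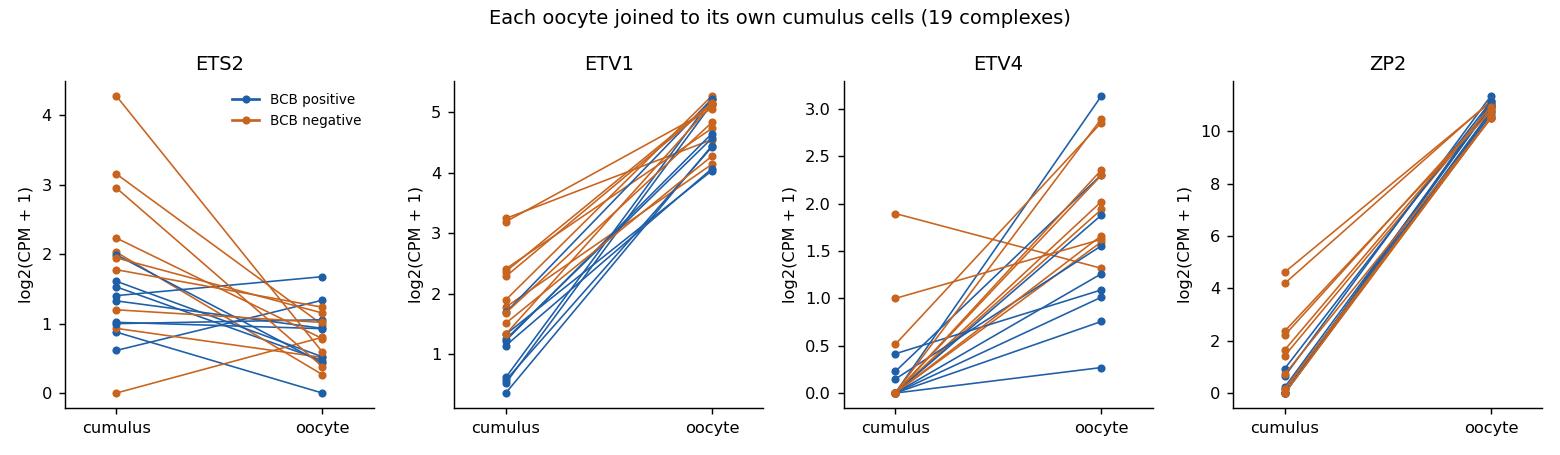
Level on the log2(CPM + 1) scale (y axes) of ETS2, ETV1, ETV4 and the oocyte marker ZP2 in cumulus cells and in the oocyte (x axes), with a line for each of 19 complexes colored by BCB class. Lines rise to the oocyte in 19 of 19 complexes for ETV1 and ZP2 and in 18 for ETV4, and fall in 15 for ETS2.

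The number run was compared without the BCB class inside the BCB negative complexes, 6 from the run 86 to 91 against 4 from earlier numbers. None of the members changed past the threshold in this comparison. In cumulus cells the log2 fold change of the later over the earlier complexes was 0.67 for ETS2 (SE 0.91, edgeR adjusted p = 0.992) and -0.65 for ETV1 (SE 0.59, edgeR adjusted p = 0.987), where 0 of 12313 genes (0%) passed, 590 had an unadjusted p under 0.05 and DESeq2 called 3. The ETS2 value rests on complex 86, without which it was -0.21. In oocytes it was 0.17 for ETV1 (SE 0.23, edgeR adjusted p = 0.674) and 0.73 for ETV4 (SE 0.38, edgeR adjusted p = 0.247), with 6 of 12753 genes (0.047%) called, 3210 at an unadjusted p under 0.05 and 621 called by DESeq2. Without 1 complex at a time edgeR called 0 to 261. The 95% interval for ETV4 ran from -0.15 to 1.61 and that for ETS2 in cumulus cells from -1.44 to 2.77, so that sizeable differences between runs lie within them.

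**Figure D4:**
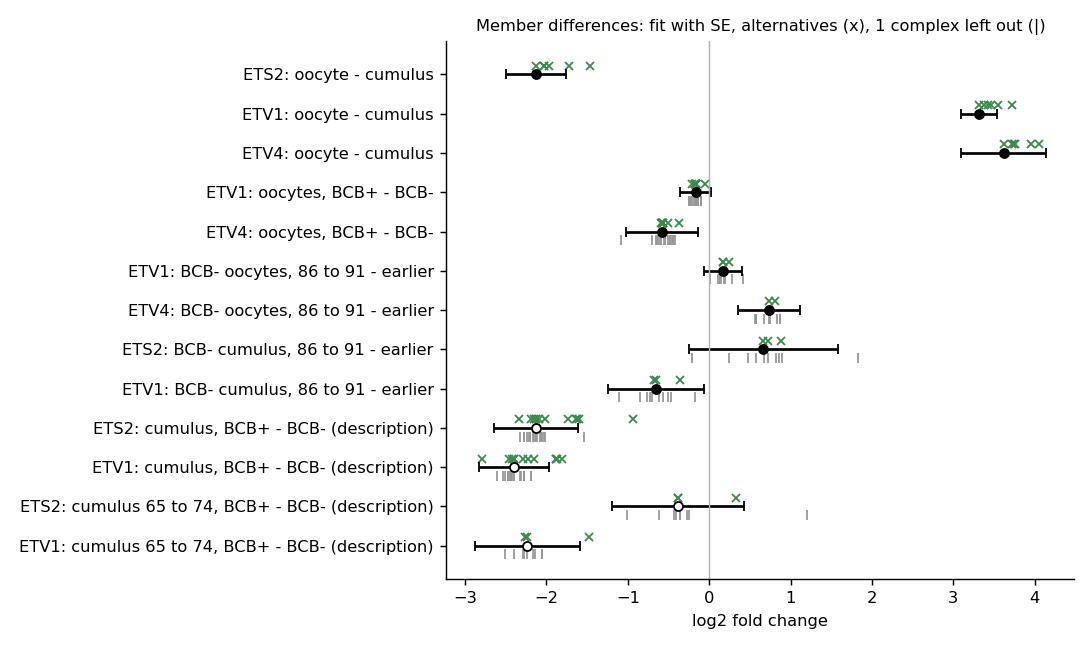
Log2 fold changes of the members (x axis) in each comparison (y axis). Open points are descriptions of the contrast that chose the gene and filled points are the other differences, each with its SE. The filled ETS2 compartment point is also a description, since it is not independent of the choice of the gene. Crosses are alternatives in normalization, filter, covariate or libraries, and ticks are fits without 1 complex. All 3 compartment differences stay on their side of 0, and the ETS2 difference within complexes 65 to 74 lies on both sides.

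The members were also related to depth, to each other and between an oocyte and its own cumulus cells, on the log2(CPM + 1) scale, in a family of 18 relations. Those of ETS2 and ETV1 in cumulus cells with the library total are given without a test, since the total differs between the classes as these genes do. For ETV1 Pearson's r with the log10 library total was -0.68 and Spearman's rho -0.67 over 19 complexes, and leaving out complexes 66 and 68, the farthest from the median total, gave r = -0.63. It was 0.01 within BCB positive and -0.47 within BCB negative complexes, so that the pooled relation was not held within both classes. For ETS2 r was -0.24 over 19 complexes. None of the other relations passed an adjusted p of 0.05.

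ETS2 and ETV1 in cumulus cells had r = 0.66 across the 10 BCB negative complexes (permutation p = 0.0384, adjusted 0.346; rho = 0.50, permutation p = 0.144) and r = 0.05 across the 9 BCB positive complexes (exact permutation p = 0.884). Between an oocyte and its own cumulus cells Pearson's r was -0.20 for ETS2, 0.18 for ETV1 and -0.10 for ETV4 (permutation p = 0.42, 0.454 and 0.691, adjusted 0.743, 0.743 and 0.884). With 13 of 19 cumulus libraries at 0 counts of ETV4, a relation of this gene could hardly be seen. In oocytes, ETV1 with ETV4 had r = 0.19 (permutation p = 0.431, adjusted 0.743).

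The study's co-expression tables pair ACBD5, which encodes a peroxisomal acyl-CoA binding protein, in the oocyte with ETS2 in cumulus cells over all complexes, and ETV4 in the oocyte with UBXN11 and GAMT in cumulus cells within BCB positive complexes. GAMT makes creatine, and UBXN11 encodes a protein with a UBX domain. On a scale close to the one used to choose them, counts divided by the TMM factor alone and passed through the inverse hyperbolic sine, but with TMM factors from the genes kept here, r was 0.84 for ACBD5 with ETS2 (n = 19), and 0.995 and 0.991 for ETV4 with UBXN11 and with GAMT (n = 9). This scale keeps the library total in the values. After scaling to the library total the coefficients were 0.62, 0.84 and 0.50. Both sets are descriptions, since the pairs were chosen on the first kind of scale.

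The BCB negative complexes were not used to choose the ETV4 pairs. Across these 10, r on the log2(CPM + 1) scale was -0.09 for UBXN11 (permutation p = 0.815, adjusted 0.884) and 0.05 for GAMT (permutation p = 0.877, adjusted 0.884), and on the scale that keeps the library total 0.61 and 0.51. The first coefficient was 0.14 with library totals alone, so that its sign depends on the scaling. ACBD5 with ETS2 was 0.90 within BCB negative and 0.73 within BCB positive complexes on that same scale, and 0.69 and 0.61 after scaling to the total. Without complex 86 the scaled coefficient over all complexes was 0.53, and without complex 19 that of the BCB positive complexes was 0.32.

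**Figure D5:**
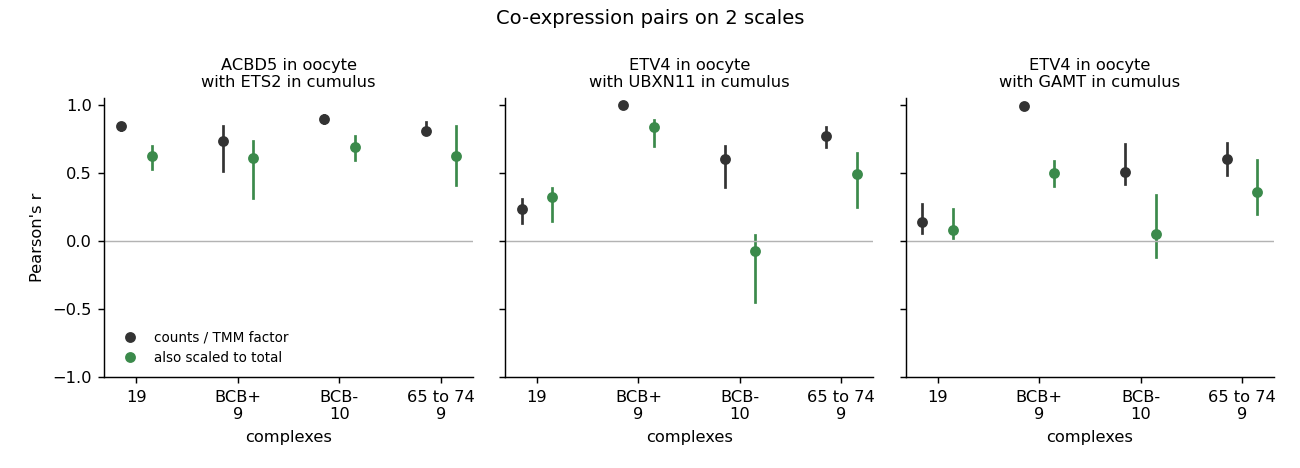
Pearson's r (y axes) of the 3 co-expression pairs with a member over all 19 complexes, each BCB class and complexes 65 to 74 (x axes, with the number of complexes). Points are coefficients on 2 scales and lines span the values without 1 complex each. For the ETV4 pairs in BCB positive complexes r falls from 0.995 and 0.991 to 0.84 and 0.50 once values are scaled to the library total.

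Of 25 other ETS family genes, 5 had an identifier with a symbol. The symbols come from the study's supplementary tables, which favor genes with low p-values or co-expression, so that the counts below cannot be read against all genes. Among tested genes with a symbol 0.957% were called between classes in cumulus cells and 87.1% between compartments, against 0.56% and 88.4% of all genes. Between compartments 4 of the 5 were called, 3 higher in oocytes and 1 lower. ETV5, the closest relative of ETV1 and ETV4, had a mean of 48.3 ± 10.8 CPM over 19 oocytes and of 0.907 ± 1.26 CPM over 19 cumulus libraries (SD, log2 fold change 6.03, SE 0.30, edgeR adjusted p = 9.85e-22), so that all 3 PEA3 genes were higher in the oocyte. In cumulus cells, where it did not pass the filter, ETV5 was at 0.283 ± 0.429 CPM (SD, n = 9) in BCB positive and 1.47 ± 1.51 CPM (SD, n = 10) in BCB negative complexes, with at most 8 counts in a library. ELK3, a ternary complex factor that ERK phosphorylates, was higher in oocytes by 4.32 on the log2 scale (SE 0.21) and ELK4 by 1.2 (SE 0.12). ELF5, known from epithelia and trophoblast, was lower in oocytes (log2 -1.71, SE 0.33, edgeR adjusted p = 7.39e-06), and ERF, a repressor that ERK inactivates, had a log2 difference of 0.07 (SE 0.17, edgeR adjusted p = 0.683). None of the 4 tested in cumulus cells and none of the 4 tested in oocytes was called between BCB classes by edgeR. In cumulus cells 2 of the 4 had an unadjusted edgeR p under 0.05, beside 2300 of all 12313 genes. In oocytes 0 of the 4 did, beside 711 of 12753 genes. The median log2 fold change of the 4 tested was -0.61 in cumulus cells and -0.02 in oocytes, beside -0.01 for all genes in both. In cumulus cells ELF5 and ELK3 each exceeded 2 CPM in 8 BCB negative libraries, against 4 and 3 BCB positive ones. They thus passed the filter mainly through the class where they were higher, and nothing is read from the cumulus median. The lowest p in cumulus cells was that of ELF5, with 2.32 ± 1.54 CPM (SD, n = 9) in BCB positive and 6.94 ± 4.9 CPM (SD, n = 10) in BCB negative complexes (log2 -2.16, SE 0.55, edgeR adjusted p = 0.0352). ELK3 had a log2 difference of -1.13 (SE 0.37, edgeR adjusted p = 0.093) and ERF of 0.01 (SE 0.26, edgeR adjusted p = 0.992). For the difference of the BCB effect between compartments none of the 5 passed. Of them 3 had an unadjusted edgeR p under 0.05, beside 2541 of all 14898 genes. The values were 2.61 for ETV5 (SE 0.64, edgeR adjusted p = 0.0116), 2.26 for ELF5 (SE 0.65, edgeR adjusted p = 0.0339) and 1.28 for ELK3 (SE 0.40, edgeR adjusted p = 0.0518). They come from the fit without the replicate block by complex, with which fewer of all genes passed.

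Genes that signal to ETS factors were followed from lists of FGF ligands and receptors, ERK feedback and response genes, and regulators of ETS proteins. Of 13 FGF genes 3 had an identifier with a symbol (FGF2, FGF9 and FGFR1), and between the classes of cumulus cells FGF9, a ligand of FGF receptors, was lower in BCB positive complexes (log2 -2.47, SE 0.47, edgeR adjusted p = 0.00732). Within the run from 65 to 74 its log2 fold change was -3.80 (SE 0.46, edgeR adjusted p = 0.000688), where 0.682% of genes passed. The 3 BCB negative cumulus libraries of this run are those richest in ZP2 and ZP3, have the smallest totals and hold 6.52 to 17.4% of mitochondrially encoded counts, and the part of these in the FGF9 value of the run was not tested. FGF9 passed the filter in 8 BCB negative and 2 BCB positive cumulus libraries, with 4 to 26 counts in a library, and was higher in oocytes (log2 0.77, SE 0.24, edgeR adjusted p = 0.00277). FGFR1, an FGF receptor, was lower in oocytes (log2 -1.21, SE 0.26, edgeR adjusted p = 3.44e-05), and FGF2 was not called between compartments. In the fit without a filter FGF2 was called higher in oocytes (log2 0.52, SE 0.14, edgeR adjusted p = 0.000719), so that its call depends on the fit. The FGF9 call between the cumulus classes was lost without the 5 libraries at 5 or more CPM of ZP2 and ZP3 (log2 -1.47, edgeR adjusted p = 0.08), with the log10 library total as a covariate (-1.02, edgeR adjusted p = 0.365), without the 4 smallest libraries (-1.92, edgeR adjusted p = 0.0574) and without the 3 libraries rich in keratins (-2.35, edgeR adjusted p = 0.0113), and was kept in 4 of 19 fits without 1 complex, where the edgeR adjusted p reached at most 0.02 and the log2 fold change stayed between -2.69 and -2.26. The other 2 FGF genes were not called, and in oocytes none of the 3 was, the lowest p being that of FGF9 (log2 -0.52, SE 0.17, edgeR adjusted p = 0.843). Their median in cumulus cells was -1.01, beside -0.01 for all genes. Of 17 ERK feedback and response genes 7 had an identifier, and of the 6 tested in each compartment edgeR called none between classes. In cumulus cells 0 of the 6 had an unadjusted edgeR p under 0.05, beside 2300 of all 12313 genes. In oocytes 2 of the 6 did, beside 711 of 12753 genes. The median log2 fold change of this list was -0.01 in cumulus cells and 0.81 in oocytes. DUSP6, a phosphatase that inactivates ERK, and SPRY2, an inhibitor of receptor signals, had log2 differences of -0.87 (SE 0.52, edgeR adjusted p = 0.388) and -1.04 (SE 0.54, edgeR adjusted p = 0.309) in cumulus cells over all complexes, and of 1.11 (SE 0.56, edgeR adjusted p = 0.376) and 1.14 (SE 0.67, edgeR adjusted p = 0.438) within the run from 65 to 74, where the sign was the other way. In oocytes the lowest p of this list was that of IER3, an immediate early gene (log2 1.15, SE 0.30, edgeR adjusted p = 0.843), followed by EGR1 (log2 1.53, SE 0.70, edgeR adjusted p = 0.874). In the same comparison the 5 cumulus markers tested in oocytes had a median of 2.02, and 5.16 among complexes 65 to 74, with 3.18 for INHBA and 2.52 for INHA over all complexes. The part of cumulus RNA in the values of IER3 and EGR1, both higher in cumulus cells, was not tested. Between compartments all 7 were called. The immediate early genes IER2, FOS, EGR1 and IER3 were lower in oocytes, with log2 fold changes of -5.82, -5.79, -5.44 and -3.84. DUSP6 was lower too (-2.05), and SPRY2 (2.27) and SPRED3, another inhibitor of the pathway, were higher.

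Of the regulators, 4 of 10 had an identifier with a symbol, CIC, ATXN1L, COP1 and FBXW7, and none of the 4 was called by edgeR between classes in either compartment or had an unadjusted p under 0.05. Their median log2 fold change was -0.01 in cumulus cells and -0.02 in oocytes. FBXW7, a subunit of a ubiquitin ligase, had 0.40 (SE 0.20, edgeR adjusted p = 0.291) and COP1 -0.12 (SE 0.11, edgeR adjusted p = 0.614) in cumulus cells. In oocytes FBXW7 had -0.20 (SE 0.12, edgeR adjusted p = 0.898). Between compartments FBXW7 was higher in oocytes by 1.83 (SE 0.12) and CIC by 0.50 (SE 0.16, edgeR adjusted p = 0.0043), where the median of all genes was 0.14, or 0.55 with library totals alone. COP1, with 0.06 (SE 0.07, edgeR adjusted p = 0.397), and ATXN1L, a partner of CIC, with 0.11 (SE 0.12, edgeR adjusted p = 0.354), were not called.

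The genes whose pattern was most like that of each member were taken, among genes with a symbol, over the 19 libraries of the compartment where the member was higher. They are chosen by their coefficients, so these are descriptions, and libraries share depth. For ETS2 in cumulus cells they were KIAA0408 (r = 0.82), AHNAK (0.81), a large scaffold protein, and CTSH (0.81), a lysosomal protease. Within BCB positive complexes their coefficients were 0.26, 0.51 and 0.02, against 0.78, 0.78 and 0.84 within BCB negative complexes. For ETV1 in oocytes they were ZIC1, a zinc finger transcription factor (r = 0.77), POLH, a DNA polymerase for damaged templates (0.69), and MCL1, an inhibitor of apoptosis (0.69), with 0.60 to 0.78 within both classes. For ETV4 in oocytes they were GFRA4, a receptor for GDNF family ligands, BCL2L2, an inhibitor of apoptosis, and HAPLN4, a link protein of the extracellular matrix (each r = 0.76), with 0.91, 0.83 and 0.82 within BCB positive and 0.33, 0.50 and 0.58 within BCB negative oocytes. In 4491 to 4595 genes ranked, the 99th percentile of r was 0.68 for ETS2, 0.54 for ETV1 and 0.66 for ETV4.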

How the data were processed

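Single oocytes and their cumulus cells were sequenced from full-length cDNA. Per the paper and the submitters' processing notes, the authors aligned trimmed read pairs to ARS-UCD 1.2 with HISAT2 2.1.0, dropped duplicates and used featureCounts 1.6.0 on Ensembl genes. The deposited values are raw counts per gene, 1 table per compartment. Gene positions and lengths were not used here, so levels are not compared between genes.

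From these counts, CPM was computed on the library total. Genes above 2 CPM in 9 or more of 19 libraries (12313 in cumulus cells, 12753 in oocytes), or of 38 for the fits over both compartments (14898), were tested with edgeR 4.0.16 in R 4.3.3 (TMM, robust quasi-likelihood, Benjamini-Hochberg adjustment over all genes, FDR 0.01, no covariate). The SE is the log2 fold change over the root of F, and the 95% interval uses the residual degrees of freedom. Library measures were compared by two-sided exact permutation, and relations by 100000 permutations, or all of them under 10 complexes. Intervals on counts are exact Poisson intervals. Oocyte and cumulus cells are paired by complex. Deviations of the pair from their group means had correlations of -0.02 to 0.22 over 10281 genes (median 0.08). Symbols of 4934 identifiers came from the study's supplementary tables, whose fold changes and p-values were not used. The fits were tested on simulated data. Alternatives used DESeq2 1.42.0, and Python 3.11.15, numpy 2.4.6, pandas 2.3.3, scipy 1.17.1 and matplotlib 3.10.9 did the rest.

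The members and lists were chosen with earlier results of these data known. Named are the members, ETS genes that were called plus ELF5, ETV5, ERF and ELK3, from each other list up to 4 called genes with the largest change or else the 2 with the lowest p, the 3 genes most like each member, and ACBD5, UBXN11 and GAMT. Markers and list genes named beyond this rule were named after their values were seen. No label says that complexes came from different animals, so p-values measure the spread between complexes.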

Additional observations from a re-analysis of the deposited data

Results flagged for a closer look

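Values far from the rest of their group were looked for in the 12 combinations of member, compartment and BCB class. In 3 of them the gap from the highest library to the next, divided by the range of the group, passed Dixon's 95% critical value. Chance passes it in about 1 of 20 groups if values are normally distributed, which CPM of low counts need not be. In BCB negative cumulus cells 7 of 10 libraries held no count of ETV4. ETS2 was at 18.4 CPM (43 counts) in the cumulus cells of complex 86, against 0 to 7.9 CPM in the other 9 BCB negative libraries. ETV4 was at 2.72 CPM in the cumulus cells of complex 68, from 3 counts in the smallest library (1103200 counts), against at most 0.998 CPM in the other 9 BCB negative libraries. ETV4 was at 7.79 CPM (112 counts) in the oocyte of complex 71, against 0.205 to 3.94 CPM in the other 8 BCB positive oocytes. No cause was tested.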

How the results depend on the processing

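The compartment differences of ETV1 and ETV4 kept their direction and their call under an FDR of 0.05 and with no filter. The same held with the scaling to library totals or by DESeq2's size factors. It also held with the replicate block by complex (3.38 and 3.76) and without the keratin-rich complexes. The ETS2 difference, a description, kept its direction in all of these and was -2.03 with the block. The oocyte differences of ETV1 and ETV4 stayed uncalled in every alternative that gave a value. Without the keratin-rich libraries ETS2 between cumulus classes was -0.94. Within complexes 65 to 74 and with library totals alone ETS2 turned to 0.32 and ETV1 was -1.47. The cause was not tested. Small cumulus counts limit ETS2, ETV1 and ETV4 there.

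Genes called between cumulus classes (69) were 360 at an FDR of 0.05, 1732 with library totals alone, 365 with DESeq2, 216 by the study's likelihood-ratio test together with DESeq2 on the genes kept here (its gene filter differs), 164 without a filter, 115 with the run and 2 with the log10 library total as a covariate. Chosen after seeing the data, leaving out libraries with 5 or more CPM of oocyte markers left 5 and leaving out the 4 smallest libraries left 2. Within complexes 65 to 74 (84) they were 198, 2372 and 266 under the first 3 of these. Between oocyte classes DESeq2 called 1, and within complexes 65 to 74 an FDR of 0.05 gave 27 and DESeq2 479. Between runs DESeq2 called 3 in cumulus cells, and in oocytes (6) an FDR of 0.05 gave 488, library totals alone 0 and DESeq2 621. For the difference of the BCB effect between compartments the count (258, of which 251 higher) was 702 at an FDR of 0.05, 646 with library totals alone (222 higher) and 2 with the replicate block. Of 18 relations 1 had an adjusted p under 0.05 (cumulus ETV1 with the library total, given above without a test), against 0 with library totals alone and 6 with the inverse hyperbolic sine of counts over the TMM factor. Of the library measures 4 passed, and 0 within complexes 65 to 74, where 3 against 6 libraries allow no smaller exact p than 0.0119.

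Leaving out 1 complex at a time gave 6 to 160 genes called between cumulus classes, 34 to 89 within complexes 65 to 74, 0 to 0 between oocyte classes, 0 to 1 for these within complexes 65 to 74, and 0 to 0 between runs in cumulus cells and 0 to 261 in oocytes. The member values ran from -2.32 to -1.54 (ETS2) and -2.60 to -2.19 (ETV1) between cumulus classes, from -0.25 to -0.10 (ETV1) and -1.09 to -0.42 (ETV4) between oocyte classes, and within complexes 65 to 74 from -1.01 to 1.2 (ETS2) and -2.51 to -2.05 (ETV1) in cumulus cells and from -0.35 to 0.23 (ETV1) and -0.013 to 0.78 (ETV4) in oocytes. Between runs they ran from -0.21 without complex 86 to 1.82 without complex 6 (ETS2) and from -1.11 to -0.17 (ETV1) in cumulus cells, and from 0.02 to 0.42 (ETV1) and 0.57 to 0.87 (ETV4) in oocytes.

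Signs that turned with the inverse hyperbolic sine scale, which keeps the library total, were those of r for ETS2 in cumulus cells with the total (0.41), ETV1 in oocytes with the total (0.77), ETV4 in cumulus cells with the total (0.0405), ETS2 and ETV4 between an oocyte and its cumulus cells (0.25 and 0.0035), and oocyte ETV4 with UBXN11 in BCB negative complexes (0.61, and 0.14 with library totals alone). On that scale the ETV4 and UBXN11 pair fell to -0.0756 once scaled to the total. Within complexes 65 to 74 the class difference turned for oocyte totals (0.18 on the log10 scale) and for the oocyte, theca and endothelium markers in oocytes (-496.1, -90.7 and 2.34 CPM). A filter of 2 CPM in all 19 libraries removed ETS2 and ETV1 in cumulus cells and ETV4 in oocytes, and DESeq2 gave no adjusted p for ETV4 between runs or within complexes 65 to 74, so these have no value.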
